A study of Felis catus with 25 samples.

Results

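The genes described here code for proteins of the mitochondrial ribosome. They were chosen by name, as the rows whose symbol starts with MRPL or MRPS followed by a digit, which gave 62 of the 13949 genes of the files. All 62 passed the filter on low counts that left 10699 genes for testing. By the structure of the mammalian mitochondrial ribosome, 41 of the 62 code for proteins of its large subunit and 21 for proteins of its small subunit. MRPS30 and MRPS18A were counted with the large subunit, where their proteins sit in spite of the name. Proteins with a counterpart in the bacterial ribosome made up 36 of the 62, and the other 26 are found only in mitochondria. MRPL12 and MRPS36 were not analysed here.

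Mitochondria keep their own ribosomes, which translate the few proteins encoded by mitochondrial DNA, all of them subunits of the respiratory chain and of ATP synthase. The RNA of these ribosomes comes from mitochondrial DNA, whereas every protein in them is encoded in the nucleus, made in the cytosol and imported. Compared with the bacterial ribosome, the mitochondrial ribosome has lost RNA and gained proteins, and loss of single proteins lowers respiration and causes human mitochondrial disease. Corneal fibroblasts, the cells of the corneal stroma, turn into contractile, matrix-producing myofibroblasts when exposed to TGFb1, the growth factor transforming growth factor beta 1.

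The cells were fibroblasts of the cornea of the cat (Felis catus), grown on collagen-coated dishes, and their polyadenylated RNA was sequenced in 5 groups of 5 libraries. FB were untreated cells at day 0, quiescent per the labels. TGFb were cells kept with 1 ng/ml TGFb1 for 2 days. The 3 day-5 groups all had those 2 days of TGFb1 first, after which it was removed and a drug was given from day 2 to day 5. UK received 30 uM UK-5099, which blocks the mitochondrial pyruvate carrier. TrogGW received 7.5 uM troglitazone, a ligand of the nuclear receptor PPAR-gamma, together with 10 uM GW9662, which antagonises that receptor. Trog received 7.5 uM troglitazone alone. No day-5 group without a drug was among the samples, so in each comparison of a day-5 group with TGFb the drug, the removal of TGFb1 and the later day changed together and cannot be told apart. An untreated day-2 group was missing too, so in TGFb against FB the TGFb1 and the later day changed together and cannot be told apart. The labels speak of biological replicates without naming donors or cultures, so p-values measure the spread between these libraries only.

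Libraries held 14.8 to 25.2 M counts, and UK replicate 5 had the fewest. Its correlation with UK replicates 1 to 4 in log2 counts per M (CPM) was 0.852 to 0.868 across genes, and any other pair of libraries of 1 group reached at least 0.988. Counts over the 62 members are therefore given with and without this library, and so is any fold change whose sign or call at an adjusted p under 0.05 depended on it. Of 13 listed fibroblast and keratocyte markers, 11 were in the files and none was at 0. Their summed level was 73859 to 90053 CPM in FB, 104633 to 125589 CPM in TGFb, 92516 to 138070 CPM in UK, 1636 to 3974 CPM in TrogGW and 4091 to 6118 CPM in Trog. The sum was thus low in the libraries of both troglitazone groups, and the single markers are not reported here. The 3 of 4 listed myofibroblast markers in the files summed to 2249 to 2560 CPM in FB, 15105 to 17686 CPM in TGFb, 3002 to 6179 CPM in UK, 24.7 to 76.1 CPM in TrogGW and 236 to 437 CPM in Trog. Of the corneal epithelial list, 3 of 6 were in the files. KRT3 and KRT12, which define that epithelium, were at 0 in every library, and the list summed to at most 10.5 CPM. PTPRC, which defines white blood cells, was also at 0, and the list of 4 immune markers summed to 9.49 to 35.2 CPM over all libraries. The 4 vascular endothelial markers summed to 4.21 to 55.3 CPM with their highest values in TrogGW, and the 4 corneal endothelial markers to 111 to 1386 CPM with their highest values in TGFb. The 2 of 4 melanocyte and Schwann cell markers in the files summed to at most 0.465 CPM. The part of these marker changes in the results below was not tested.

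Summed over the 62 genes, mitochondrial ribosomal protein mRNA was highest in FB and lower in every other group, once UK replicate 5 was set aside. CPM are counts over the library total scaled by the trimmed mean of M-values (TMM). The sum was 1907 ± 69.9 CPM in TGFb, against 2435 ± 84.3 CPM in FB (SD, n = 5 each), with 1806 to 1998 CPM in TGFb libraries and 2329 to 2519 CPM in FB libraries. It was 1549 ± 80.5 CPM in UK without replicate 5 (n = 4), 1629 ± 56.3 CPM in TrogGW and 1655 ± 84.1 CPM in Trog. The libraries of these 3 groups, at 1459 to 1641, 1535 to 1681 and 1547 to 1735 CPM, overlapped one another and all lay below the TGFb libraries. UK replicate 5 had 5297 CPM, above all 24 other libraries, and the UK mean with it was 2298 ± 1678 CPM (SD, n = 5).

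As a share of all counts, with no TMM scaling, the order of the groups was partly different. The 62 genes took 0.142% ± 0.00854 of the counts in TGFb, against 0.235% ± 0.0103 in FB (SD, n = 5 each). They took 0.140% ± 0.0111 in UK without replicate 5 (n = 4), 0.219% ± 0.0125 in TrogGW and 0.198% ± 0.0113 in Trog. The troglitazone groups thus lay above TGFb by share and below it by TMM-scaled CPM. In place of TMM, scaling by library totals alone shifted the median fold change over all tested genes (log2) by -0.37 for TGFb against FB, 0.23 for UK against TGFb, 0.85 for TrogGW against TGFb and 0.68 for Trog against TGFb. The fall in TGFb held on either scale. In bulk RNA, fewer cells of a type and less RNA per cell cannot be told apart.

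**Figure D1:**
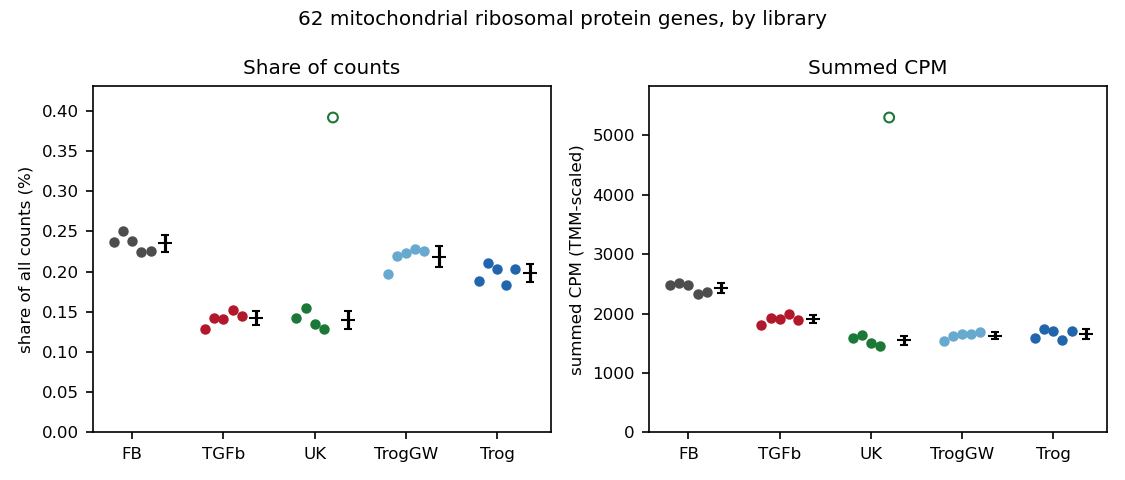
Share of all counts in percent (left) and summed TMM-scaled CPM (right) of the 62 mitochondrial ribosomal protein genes in each of the 25 libraries; filled points are libraries, the open point is UK replicate 5, and the bars show mean and SD of 5 libraries (4 in UK, without replicate 5). All TGFb libraries lie below all FB libraries on both scales, while the troglitazone groups lie above TGFb by share and below it by CPM.

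Cells at day 2, given TGFb1, had less mRNA of most mitochondrial ribosomal proteins than untreated cells at day 0. At an adjusted p under 0.05 in edgeR's quasi-likelihood test, adjusted over all tested genes by the Benjamini-Hochberg method, 20 of the 62 fell and 1 rose in TGFb against FB. Each adjusted p below is from this test, and the value after ± beside a log2 fold change is its standard error (SE). Over all tested genes 20.2% were lower and 18% were higher. UK replicate 5 bears on this comparison through the spread that all groups share, and with it left out 47 of the 62 fell and 2 rose, or 75.8% and 3.23% of them, against 34.3% lower and 31.7% higher of all tested genes. The median log2 fold change was -0.38 over the members and -0.02 over all tested genes, and 59 of the 62 fold changes were negative. In 42 members, or 67.7%, all TGFb libraries lay below all FB libraries, and in 2, or 3.23%, all lay above, against 27.4% and 25.8% of all tested genes. Scaling by library totals made 44 members lower and none higher, with 47.1% of all tested genes lower and 7.57% higher. Without UK replicate 5 it made all 62 lower, with 62.9% and 12.8% of all tested genes. The median over all genes moved down by this scaling too, and the gap between the medians of members and of all genes was -0.36 under each scaling. Since scaling moves all genes of a comparison by nearly the same amount, the unchanged gap is not a separate check.

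MRPL32, a large-subunit protein whose precursor is cut to its mature form by the m-AAA protease in the mitochondrion, was among those with the strongest evidence for a fall. It had 8.73, 9.495, 9.31, 11.3 and 9.58 CPM in TGFb libraries, against 19.6, 20.5, 19.9, 20.3 and 19.2 CPM in FB libraries. The groups were far apart, with the highest TGFb library well below the lowest FB library, and the log2 fold change was -1.04 ± 0.17 (SE, adjusted p = 2.5e-05, and SE 0.07, adjusted p = 3.0e-13 without UK replicate 5). MRPS22, a small-subunit protein found only in mitochondria and mutated in a human mitochondrial disorder, had 25.05, 24.7, 25.7, 26.4 and 24.1 CPM in TGFb, against 46.7, 51.8, 47.6, 46.3 and 45.5 CPM in FB. Its libraries were tight on both sides and far apart, with a log2 fold change of -0.92 ± 0.14 (SE, adjusted p = 1.6e-05, and SE 0.07, adjusted p = 8.6e-13 without UK replicate 5). MRPL4, which lines the tunnel through which the new protein chain leaves, had 10.4, 9.37, 9.76, 10.3 and 10.4 CPM in TGFb, against 18.9, 15.4, 20.3, 15.8 and 16.8 CPM in FB. The groups did not overlap, and the log2 fold change was -0.79 ± 0.10 (SE, adjusted p = 4.6e-07, and SE 0.09, adjusted p = 5.1e-09 without UK replicate 5).

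MRPL9, the counterpart of a bacterial large-subunit protein, fell by less. It had 32.2, 28.9, 30.2, 30.8 and 28.2 CPM in TGFb, against 39.2, 42.9, 38.7, 38.1 and 38.6 CPM in FB, without overlap, and a log2 fold change of -0.39 ± 0.07 (SE, adjusted p = 1.2e-04, and SE 0.06, adjusted p = 1.4e-06 without UK replicate 5). MRPS35 and MRPL19 were among the members with the lowest p once UK replicate 5 was left out. MRPS35, a small-subunit protein found only in mitochondria, had 37.8, 37.5, 39.8, 39.4 and 37.2 CPM in TGFb, against 72.1, 73.2, 70.4, 68.2 and 70.8 CPM in FB. Its libraries were tightly grouped on both sides, and the log2 fold change was -0.89 ± 0.32 (SE, adjusted p = 0.033, and SE 0.05, adjusted p = 1.6e-15 without UK replicate 5). MRPL19, a large-subunit protein with a bacterial counterpart, had 8.98, 10.5, 9.93, 11.1 and 10.1 CPM in TGFb, against 22.3, 23.8, 23.9, 21.4 and 20.1 CPM in FB, again without overlap. Its log2 fold change of -1.14 ± 0.27 (SE, adjusted p = 0.0017, and SE 0.08, adjusted p = 4.0e-13 without UK replicate 5) was the most negative of the 62 in this comparison.

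The exceptions were MRPL17 and MRPS27. MRPL17, a large-subunit protein that lies near the exit of the tunnel, had 103, 114, 109, 108 and 111 CPM in TGFb, against 96.3, 95.5, 99.03, 98.5 and 89.96 CPM in FB. All TGFb libraries lay above all FB libraries by a small margin, with a log2 fold change of 0.19 ± 0.06 (SE, adjusted p = 0.015, and SE 0.04, adjusted p = 2.4e-04 without UK replicate 5). Scaled by library totals it was -0.19 in place of 0.19, so the rise of MRPL17 holds relative to other genes only. MRPS27, a small-subunit protein of the pentatricopeptide repeat family, had 78.7, 76.02, 79.8, 82.2 and 81.8 CPM in TGFb, against 65.9, 74.98, 71.1, 70.1 and 69.8 CPM in FB. Here too the groups did not overlap, but the log2 fold change of 0.18 ± 0.10 (adjusted p = 0.19) passed the test only without UK replicate 5, at 0.18 ± 0.05 (adjusted p = 0.0013). On library totals it was -0.20.

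**Figure D2:**
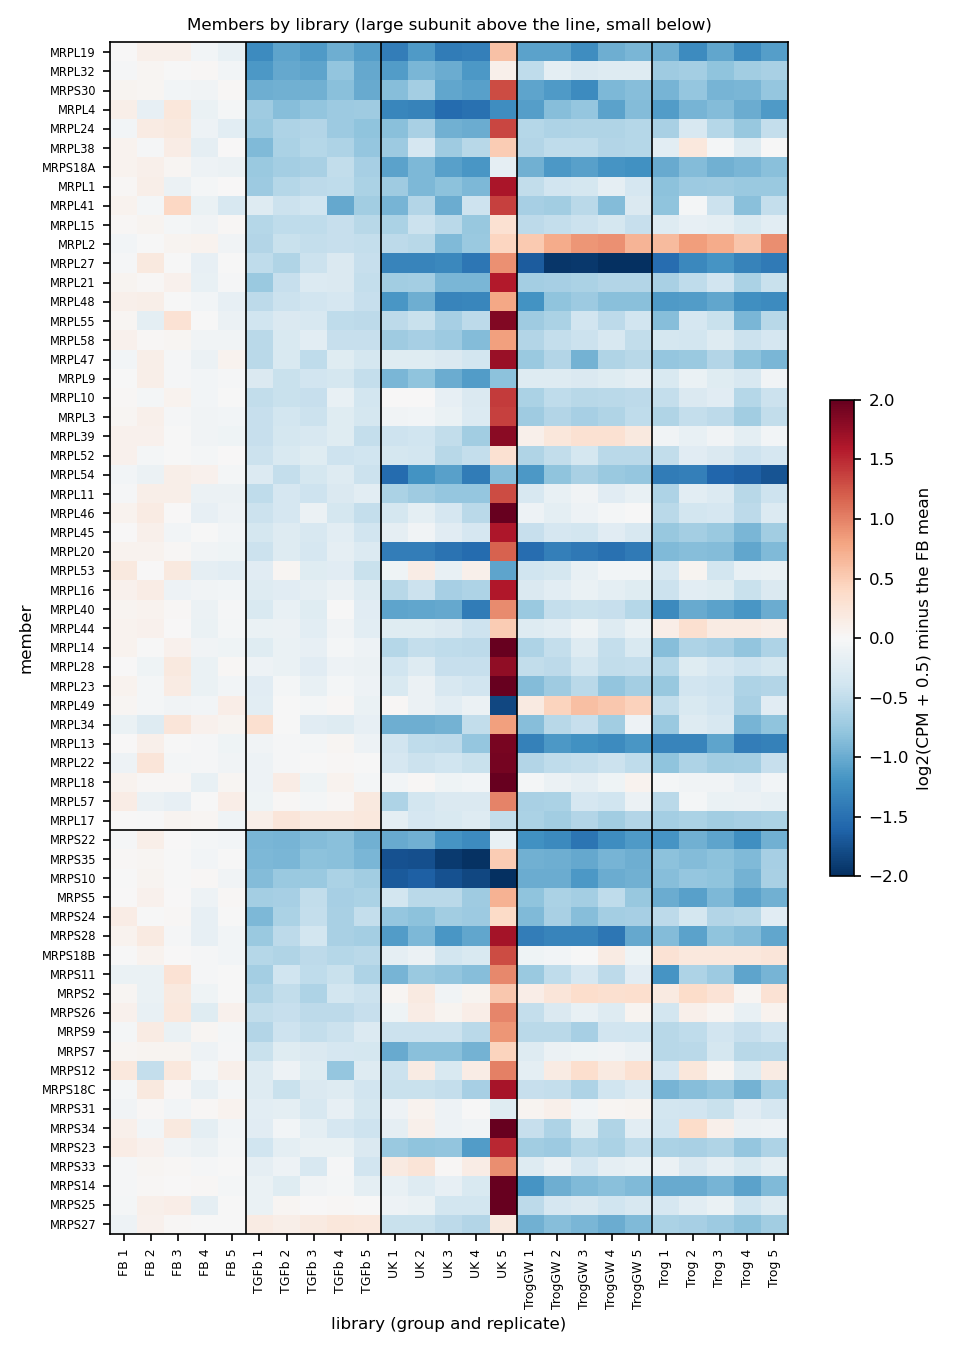
Level of each of the 62 members in each library as log2(CPM + 0.5) minus the mean over the FB libraries (colour, cut at -2 and 2), with large-subunit members above the horizontal line and small-subunit members below it, each ordered by the TGFb mean. Most members are blue, or lower than in FB, in TGFb and in the day-5 groups, and UK replicate 5 is red for most members.

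In cells given UK-5099 after TGFb1, the result turned on UK replicate 5. Over all 25 libraries, 15 members rose and 6 fell in UK against TGFb, with 28% of all tested genes higher and 22.5% lower. Without that library 7 rose and 33 fell, or 11.3% and 53.2% of the members, against 35.9% higher and 35% lower of all tested genes. The median log2 fold change of the members was 0.41 with the library and -0.19 without it, against 0.09 and 0.02 over all tested genes. Of the 15 members called higher with it, 7 were also called higher without it, and all 6 called lower with it were called lower without it. In 26 members, or 41.9%, the 4 other UK libraries all lay below all TGFb libraries, and in 5, or 8.06%, they all lay above, against 30.6% and 30% of all tested genes. With all 5 UK libraries these counts were 5 and 4, against 18.7% and 16% of all tested genes. Scaled by library totals and with UK replicate 5 left out, 23 members (37.1%) were higher and 15 (24.2%) lower, against 54.1% and 20.2% of all tested genes.

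MRPS10 of the small subunit was among the 6 members that fell with or without it. It had 52.8, 54.6, 50.6 and 47.8 CPM in UK replicates 1 to 4 and 20.6 CPM in replicate 5, against 92.9, 101, 101, 110.1 and 105 CPM in TGFb. The last UK library was the lowest of all and no UK library reached the TGFb range, with a log2 fold change of -1.17 ± 0.16 (SE, adjusted p = 1.1e-06) over all libraries and -0.99 ± 0.06 (adjusted p = 3.9e-15) without UK replicate 5. MRPL9 had 20.6, 22.5, 19.6, 17.96 and 22.2 CPM in UK, against 32.2, 28.9, 30.2, 30.8 and 28.2 CPM in TGFb. The 5 UK libraries, replicate 5 included, were close together and lay below TGFb, at -0.55 ± 0.07 (SE, adjusted p = 1.2e-06) over all libraries and -0.58 ± 0.07 (adjusted p = 8.7e-09) without UK replicate 5. MRPL54, a large-subunit protein found only in mitochondria, had 3.45, 4.51, 4.88, 3.84 and 5.86 CPM in UK, against 8.98, 7.73, 8.46, 9.03 and 8.02 CPM in TGFb, without overlap, and a log2 fold change of -0.92 ± 0.13 (SE, adjusted p = 1.9e-06) over all libraries and -1.01 ± 0.12 (adjusted p = 1.0e-08) without UK replicate 5. MRPL17 had 83.6, 75.5, 77.6, 79.6 and 67.7 CPM in UK, against 103, 114, 109, 108 and 111 CPM in TGFb, so that UK was below TGFb in every library, at -0.51 ± 0.06 (SE, adjusted p = 1.8e-07) over all libraries and -0.46 ± 0.04 (adjusted p = 1.7e-10) without UK replicate 5. For MRPL4 the log2 fold change was -0.67 ± 0.10 (SE, adjusted p = 5.9e-06) over all libraries and -0.70 ± 0.10 (adjusted p = 6.7e-07) without UK replicate 5.

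Other falls were larger, or passed the test only, when UK replicate 5 was left out. MRPL20, the counterpart of a bacterial protein that binds ribosomal RNA early in assembly, had 72.5, 72.5, 68.3 and 65.2 CPM in UK replicates 1 to 4 and 430.2 CPM in replicate 5, against 141, 159.8, 150.3, 169 and 157 CPM in TGFb. The first 4 libraries lay below the lowest TGFb library and the last one far above the highest, with a log2 fold change of -0.14 ± 0.36 (SE, adjusted p = 0.78) over all libraries and -1.16 ± 0.06 (adjusted p = 2.5e-17) without UK replicate 5. MRPS35 had 20.7, 20.6, 18.4 and 17.6 CPM in UK replicates 1 to 4 and 101 CPM in replicate 5, against 37.8, 37.5, 39.8, 39.4 and 37.2 CPM in TGFb, which gave -0.12 ± 0.32 (SE, adjusted p = 0.78) over all libraries and -0.99 ± 0.06 (adjusted p = 2.0e-15) without UK replicate 5. MRPS27 had 51.5, 51.4, 48.9 and 46.6 CPM in UK replicates 1 to 4 and 80.8 CPM in replicate 5, against 78.7, 76.02, 79.8, 82.2 and 81.8 CPM in TGFb. It fell in both fits, with -0.52 ± 0.10 (SE, adjusted p = 2.5e-04) over all libraries and -0.68 ± 0.05 (adjusted p = 4.8e-13) without UK replicate 5.

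MRPS2 and MRPS26 led the members that rose in UK. MRPS2, a small-subunit protein with a counterpart in all ribosomes, had 35.2, 38.7, 32.7, 35.7 and 49.8 CPM in UK, against 22.3, 24.1, 22.2, 26.4 and 25.3 CPM in TGFb. All UK libraries lay above all TGFb libraries, and the log2 fold change was 0.67 ± 0.10 (SE, adjusted p = 5.6e-06) over all libraries and 0.57 ± 0.08 (adjusted p = 9.3e-08) without UK replicate 5. MRPS26, a mitochondria-specific protein of the small subunit, had 11.6, 13.7, 12.9, 13.6 and 24.7 CPM in UK, against 8.61, 8.83, 8.405, 8.43 and 8.83 CPM in TGFb. It too did not overlap, at 0.82 ± 0.16 (SE, adjusted p = 2.0e-04) over all libraries and 0.59 ± 0.11 (adjusted p = 3.3e-05) without UK replicate 5. MRPS33, another mitochondria-specific small-subunit protein, had 19.04, 20.1, 17.1, 18.6 and 32.5 CPM in UK, against 14.7, 15.5, 13.3, 16.5 and 12.8 CPM in TGFb, and 0.55 ± 0.13 (SE, adjusted p = 7.3e-04) over all libraries and 0.37 ± 0.07 (adjusted p = 7.3e-05) without UK replicate 5. MRPS18B, one of the paralogs of the bacterial protein S18, rose with 0.79 ± 0.21 (SE, adjusted p = 0.0034) over all libraries and 0.32 ± 0.06 (adjusted p = 8.7e-06) without UK replicate 5. It had 45.5, 47.01, 39.7 and 41.3 CPM in UK replicates 1 to 4 and 128 CPM in replicate 5.

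In both troglitazone groups single members moved by more than 2-fold in either direction, and the members as a whole lay slightly below the rest of the genes. In TrogGW against TGFb, 7 members rose and 9 fell, with 38.1% of all tested genes higher and 31.3% lower. Leaving out UK replicate 5, 14 rose and 26 fell, or 22.6% and 41.9%, against 46.6% and 39.3% of all tested genes. In Trog against TGFb, 8 members rose and 9 fell, with 32.9% of all tested genes higher and 29.7% lower. Leaving it out, 10 rose and 29 fell, or 16.1% and 46.8%, against 42% and 39%. With all libraries the members' counts in both directions were below the shares of all genes, and without UK replicate 5 the shares that fell were somewhat above those of all genes and the shares that rose below them. The median log2 fold change was -0.11 over the members and 0.09 over all tested genes in TrogGW, and -0.14 and 0.04 in Trog. On library totals 44 members were higher and 2 lower in TrogGW, with 70.1% and 12.4% of all tested genes, and 34 were higher and 2 lower in Trog, with 63.8% and 12.9% of all tested genes. The members' median minus that of all genes was -0.20 in TrogGW and -0.18 in Trog under both scalings. As in TGFb against FB, scaling can hardly change this difference. In 24 members (38.7%) all TrogGW libraries lay below all TGFb libraries and in 9 (14.5%) all lay above, against 35.2% and 40.9% of all tested genes. In Trog these counts were 25 (40.3%) and 8 (12.9%), against 34.3% and 36.5%. The shares below were thus near those of all genes and the shares above were lower than theirs. The 3 day-5 comparisons share the TGFb libraries.

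MRPL2, the counterpart of a core protein near the catalytic centre of the bacterial ribosome, rose most in both groups. It had 27.5, 32.3, 35.4, 36.5 and 30.9 CPM in TrogGW and 29.9, 34.4, 32.3, 28.2 and 36.6 CPM in Trog, against 12.6, 13.9, 13.5, 13.7 and 13.6 CPM in TGFb. All 10 libraries with troglitazone lay above all FB and TGFb libraries. The log2 fold change was 1.28 ± 0.17 (SE, adjusted p = 4.1e-07, and SE 0.08, adjusted p = 7.1e-15 without UK replicate 5) in TrogGW and 1.26 ± 0.17 (SE, adjusted p = 6.0e-07, and SE 0.08, adjusted p = 1.2e-14 without UK replicate 5) in Trog. MRPS2 had 37.5, 40.6, 43.8, 42.8 and 43.2 CPM in TrogGW and 38.9, 44.3, 41.2, 35.3 and 41.96 CPM in Trog. These lay above the TGFb libraries without overlap, at 0.79 ± 0.10 (SE, adjusted p = 2.3e-07, and SE 0.07, adjusted p = 1.3e-11 without UK replicate 5) in TrogGW and 0.75 ± 0.10 (SE, adjusted p = 7.0e-07, and SE 0.07, adjusted p = 5.6e-11 without UK replicate 5) in Trog.

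MRPS18B had 48.3, 49.6, 50.8, 57.5 and 48.3 CPM in TrogGW and 62.5, 59.8, 59.3, 59.5 and 61.1 CPM in Trog, against 34.3, 33.8, 35.6, 34.5 and 35.02 CPM in TGFb. Both groups lay above TGFb, with log2 fold changes of 0.56 ± 0.21 (adjusted p = 0.024) and 0.80 ± 0.21 (adjusted p = 0.0022). MRPL38, a large-subunit protein found only in mitochondria, had 30.3, 40.8, 34.3, 29.4 and 34.8 CPM in Trog, against 18.9, 22.4, 23.5, 22.8 and 20.3 CPM in TGFb. It rose in Trog, at 0.65 ± 0.17 (SE, adjusted p = 0.0017, and SE 0.09, adjusted p = 4.6e-08 without UK replicate 5), whereas its log2 fold change in TrogGW was 0.14 ± 0.17 (adjusted p = 0.48). MRPL32 had 13.9, 17.2, 16.2, 16.6 and 16.6 CPM in TrogGW and 12.03, 12.2, 11.2, 12.05 and 12.5 CPM in Trog. The TrogGW libraries lay between those of TGFb and FB, and the lowest Trog library was within the TGFb range. Its log2 fold change was 0.74 ± 0.17 (SE, adjusted p = 4.9e-04, and SE 0.07, adjusted p = 1.9e-10 without UK replicate 5) in TrogGW and 0.31 ± 0.17 (adjusted p = 0.11) in Trog, where it passed the test without UK replicate 5 at 0.31 ± 0.08 (adjusted p = 4.2e-04). MRPS31, a mitochondria-specific small-subunit protein, had 24.4, 25.2, 22.6, 24.2 and 24.3 CPM in TrogGW, against 20.2, 20.3, 18.6, 20.8 and 18.2 CPM in TGFb, with 0.30 ± 0.07 (SE, adjusted p = 6.5e-04, and SE 0.06, adjusted p = 3.6e-05 without UK replicate 5).

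The falls were led by MRPL17 and MRPS27. On library totals the fold change in TrogGW was 0.02 for MRPL17 and 0.36 for MRPL54, and -0.26 for MRPS27. In Trog it was -0.17 for MRPL17, which did not pass the test on that scale, -0.61 for MRPL54 and -0.21 for MRPS27. MRPL17 had 61.3, 58.7, 63.97, 58.98 and 63.4 CPM in TrogGW and 59.5, 61.5, 59.1, 60.5 and 61.9 CPM in Trog, below all TGFb and FB libraries. Its log2 fold change was -0.83 ± 0.06 (SE, adjusted p = 1.4e-11, and SE 0.04, adjusted p = 1.2e-17 without UK replicate 5) in TrogGW and -0.85 ± 0.06 (SE, adjusted p = 1.4e-11, and SE 0.04, adjusted p = 1.2e-17 without UK replicate 5) in Trog. MRPS27 had 35.8, 38.6, 37.1, 35.1 and 37.98 CPM in TrogGW and 45.2, 44.4, 42.5, 39.7 and 43.2 CPM in Trog. These are the lowest values of the gene among the groups, with -1.11 ± 0.11 (SE, adjusted p = 2.0e-09, and SE 0.05, adjusted p = 2.1e-19 without UK replicate 5) in TrogGW and -0.89 ± 0.11 (SE, adjusted p = 9.6e-08, and SE 0.05, adjusted p = 6.6e-17 without UK replicate 5) in Trog.

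MRPL13, a large-subunit protein with a counterpart in all ribosomes, had 19.9, 23.1, 22.2, 21.4 and 22.8 CPM in TrogGW and 20.4, 20.3, 24.6, 19.5 and 20.04 CPM in Trog, against 49.4, 51.1, 50.4, 53.5 and 48.3 CPM in TGFb. Both groups lay far below the TGFb libraries, with log2 fold changes of -1.21 ± 0.35 (SE, adjusted p = 0.0035, and SE 0.07, adjusted p = 1.4e-16 without UK replicate 5) in TrogGW and -1.27 ± 0.35 (SE, adjusted p = 0.0028, and SE 0.07, adjusted p = 7.8e-17 without UK replicate 5) in Trog. MRPL27, whose bacterial counterpart reaches the catalytic centre, had 8.01, 6.55, 6.58, 5.59 and 6.302 CPM in TrogGW and 8.93, 10.6, 11.5, 10.2 and 9.72 CPM in Trog, against 18.6, 17.3, 19.5, 21.6 and 19.2 CPM in TGFb. No libraries of the groups overlapped, and the log2 fold change was -1.54 ± 0.33 (SE, adjusted p = 2.3e-04, and SE 0.09, adjusted p = 3.9e-16 without UK replicate 5) in TrogGW and -0.92 ± 0.32 (SE, adjusted p = 0.017, and SE 0.09, adjusted p = 4.8e-11 without UK replicate 5) in Trog. MRPL54 had 4.63, 6.07, 6.78, 6.32 and 6.22 CPM in TrogGW and 3.82, 3.92, 3.33, 3.21 and 2.95 CPM in Trog. It fell in each, with log2 fold changes of -0.49 ± 0.12 (adjusted p = 0.0011) and -1.29 ± 0.13 (adjusted p = 4.5e-09). MRPL20 had 65.9, 73.3, 70.2, 67.8 and 71.1 CPM in TrogGW and 104, 105, 105, 92.3 and 103 CPM in Trog, against 141, 159.8, 150.3, 169 and 157 CPM in TGFb, with no overlap. It fell in TrogGW, at -1.16 ± 0.36 (SE, adjusted p = 0.0071, and SE 0.05, adjusted p = 6.7e-19 without UK replicate 5). Its log2 fold change in Trog was -0.61 ± 0.36 (adjusted p = 0.15), and -0.61 ± 0.05 (adjusted p = 3.9e-12) without UK replicate 5, where it passed the test, while on library totals it was 0.07. MRPL40, found only in mitochondria, had log2 fold changes of -0.36 ± 0.29 (adjusted p = 0.28) in TrogGW and -0.93 ± 0.29 (adjusted p = 0.0082) in Trog. Without UK replicate 5 it passed the test in TrogGW as well, at -0.36 ± 0.07 (adjusted p = 5.9e-05), but on library totals it was 0.50 there.

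**Figure D3:**
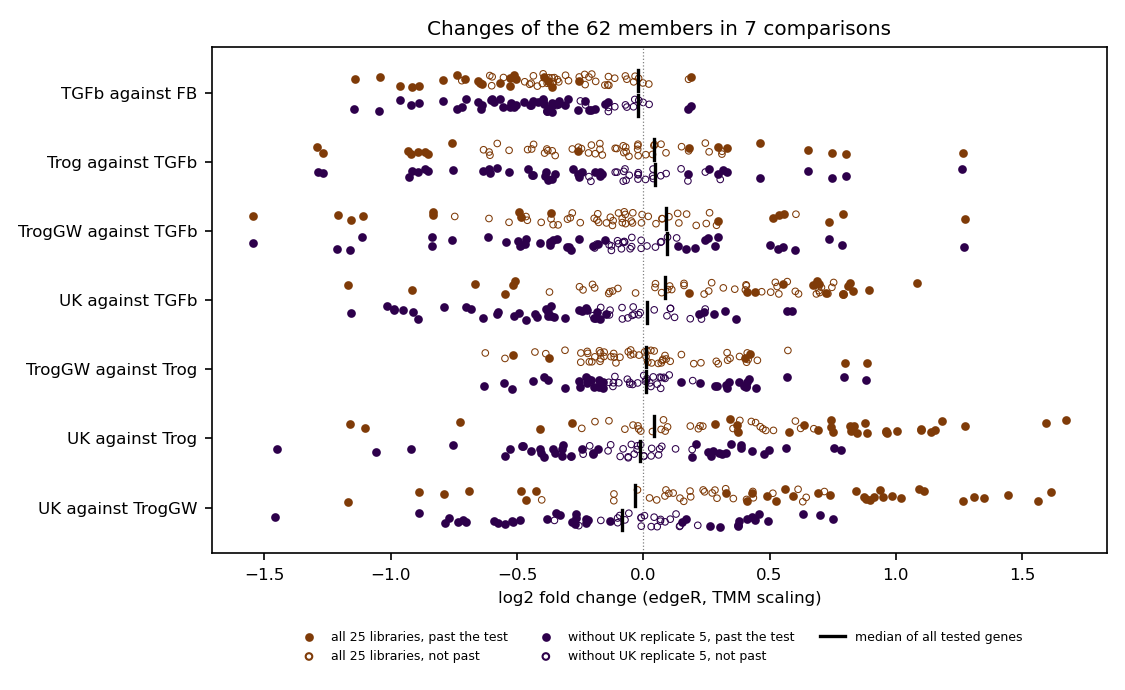
Log2 fold change of each of the 62 members in the 7 comparisons (rows), from the fit of all 25 libraries and from the fit without UK replicate 5; filled points passed the test at an adjusted p under 0.05 and vertical bars mark the median of all tested genes. In TGFb against FB nearly all members lie left of the median of all genes, and in the 3 comparisons with UK the points move left when UK replicate 5 is left out.

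Adding the antagonist GW9662 to troglitazone moved members both ways without a shift of the whole. In TrogGW against Trog, 4 members rose and 2 fell, with 22.8% of all tested genes higher and 20.4% lower. Without UK replicate 5, 17 rose and 19 fell, or 27.4% and 30.6%, which is below the 36.2% and 35.4% of all tested genes. The median log2 fold change was 0.01 over the members and over all tested genes alike. None of the 62 changed by more than 2-fold. In 12 members (19.4%) all TrogGW libraries lay above all Trog libraries and in 10 (16.1%) below, against 27.3% and 26.9% of all tested genes. On library totals 10 were higher and 1 was lower, with 31.9% and 13.7% of all tested genes, and the median of all genes moved by 0.17.

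MRPL49, a mitochondria-specific large-subunit protein, had 17.6, 21.3, 23.8, 22.8 and 21.4 CPM in TrogGW, against 10.9, 12.4, 11.7, 9.74 and 13.1 CPM in Trog. The groups did not overlap and the log2 fold change was 0.89 ± 0.20 (SE, adjusted p = 7.7e-04, and SE 0.08, adjusted p = 6.9e-11 without UK replicate 5). MRPL54 rose by 0.80 ± 0.13 (SE, adjusted p = 1.4e-05, and SE 0.11, adjusted p = 2.3e-07 without UK replicate 5), MRPL32 by 0.42 ± 0.17 (SE, adjusted p = 0.042, and SE 0.07, adjusted p = 3.8e-06 without UK replicate 5), and MRPS31 by 0.40 ± 0.07 (SE, adjusted p = 4.9e-05, and SE 0.06, adjusted p = 3.9e-07 without UK replicate 5). For MRPL32 and MRPS31 the TrogGW libraries lay above all Trog libraries as well. MRPL44, a protein with the fold of a ribonuclease III that is mutated in a human cardiomyopathy, had 26.8, 27.8, 30.1, 26.7 and 29.3 CPM in TrogGW, against 35.2, 40.1, 36.04, 36.1 and 34.7 CPM in Trog. It fell without overlap, at -0.37 ± 0.12 (SE, adjusted p = 0.013, and SE 0.05, adjusted p = 4.8e-07 without UK replicate 5). MRPL38 had 23.3, 24.4, 24.4, 23.1 and 23.3 CPM in TrogGW, so that the level of Trog was not reached by any TrogGW library, and it fell, at -0.52 ± 0.17 (adjusted p = 0.015). MRPL20 and MRPL27 passed the test only without UK replicate 5, with -0.55 ± 0.05 (adjusted p = 1.2e-10) for MRPL20 and -0.63 ± 0.09 (adjusted p = 4.0e-07) for MRPL27.

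Against the troglitazone groups, UK-5099 was compared at another dose, 30 uM against 7.5 uM. Over all libraries 28 members rose and 5 fell in UK against Trog, with 32.9% of all tested genes higher and 28.2% lower, and 26 rose and 7 fell in UK against TrogGW, with 32.9% and 35.1%. Without UK replicate 5 the rises were fewer and the falls more numerous. In UK against Trog 17 rose and 22 fell, or 27.4% and 35.5%, against 37.2% and 37.9% of all tested genes. In UK against TrogGW 15 rose and 24 fell, or 24.2% and 38.7%, against 36.9% and 44.5%. These shares lie below those of all genes. The median of the members was 0.45 in UK against Trog and -0.05 without the library, and 0.42 and -0.07 in UK against TrogGW. Scaled by library totals, 4 members were higher and 17 lower than in Trog, with 16.7% and 49.9% of all tested genes, and 3 higher and 25 lower than in TrogGW, with 15.6% and 61%, and the median of all genes moved by -0.46 and -0.62. Of the 28 members higher than in Trog 16 were also called higher without UK replicate 5, and of the 26 higher than in TrogGW 15 were.

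MRPL13 and MRPS14 were higher in UK also without that library. MRPL13 had 39.7, 36.3, 35.9 and 29.97 CPM in UK replicates 1 to 4 and 195 CPM in replicate 5. The 4 libraries lay between the troglitazone groups and TGFb, with a log2 fold change against TrogGW of 1.62 ± 0.35 (SE, adjusted p = 2.8e-04) over all libraries and 0.70 ± 0.07 (adjusted p = 2.7e-10) without UK replicate 5, and against Trog of 1.68 ± 0.35 (SE, adjusted p = 2.4e-04) over all libraries and 0.76 ± 0.07 (adjusted p = 7.9e-11) without UK replicate 5. MRPS14, a small-subunit protein with a counterpart in all ribosomes, had 27.2, 25.3, 27.05 and 24.4 CPM in UK replicates 1 to 4 and 126 CPM in replicate 5, against 13.1, 15.1, 16.2, 16.7 and 16.2 CPM in TrogGW and 14.7, 14.8, 15.7, 14.2 and 16.3 CPM in Trog. Its lowest UK library was above every library of both, and it was called higher in both fits, at 1.56 ± 0.32 (SE, adjusted p = 1.6e-04) over all libraries and 0.75 ± 0.07 (adjusted p = 1.3e-11) without UK replicate 5 against TrogGW and 0.78 ± 0.07 (adjusted p = 8.2e-12) against Trog without UK replicate 5. MRPS5, a small-subunit protein with a counterpart in all ribosomes, had 28.5, 25.4, 25.2 and 22.4 CPM in UK replicates 1 to 4, against 18.3, 17.1, 19.6, 17.3 and 18.8 CPM in Trog, and 0.82 ± 0.18 (SE, adjusted p = 3.5e-04) over all libraries and 0.48 ± 0.07 (adjusted p = 4.9e-07) without UK replicate 5. MRPL45, which anchors the ribosome to the inner membrane beside the tunnel exit, had 48.7, 52.5, 46.8 and 43.4 CPM in UK replicates 1 to 4 and 170.3 CPM in replicate 5, against 32.4, 34.1, 32.6, 28.98 and 33.8 CPM in Trog. It was higher in UK, at 1.15 ± 0.25 (SE, adjusted p = 4.0e-04) over all libraries and 0.57 ± 0.06 (adjusted p = 1.0e-09) without UK replicate 5. MRPL17 was higher than in Trog by 0.34 ± 0.06 (SE, adjusted p = 2.9e-05) over all libraries and 0.39 ± 0.04 (adjusted p = 4.6e-09) without UK replicate 5, but its fold change on library totals was -0.11. MRPS27 was higher than in TrogGW by 0.59 ± 0.11 (SE, adjusted p = 2.8e-05) over all libraries and 0.43 ± 0.05 (adjusted p = 5.3e-09) without UK replicate 5, and here too library totals turned the sign, to -0.05. For MRPL3, a protein close to the catalytic centre, the log2 fold change against TrogGW was 0.94 ± 0.21 (SE, adjusted p = 3.6e-04) over all libraries and 0.49 ± 0.06 (adjusted p = 4.1e-09) without UK replicate 5. Without that library, the median of all tested genes against TrogGW was -0.08 with TMM and -0.66 on library totals. That move is larger than the rise of MRPL3 in the same fit, and the value of MRPL3 on library totals is not given here.

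The members lower in UK than in both troglitazone groups were led by MRPL2, MRPL9 and MRPS10. MRPL2 had 13.1, 12.8, 10.1 and 11.1 CPM in UK replicates 1 to 4 and 25.7 CPM in replicate 5. No UK library reached the troglitazone libraries, with -1.17 ± 0.17 (SE, adjusted p = 1.6e-06) over all libraries and -1.46 ± 0.09 (adjusted p = 1.8e-15) without UK replicate 5 against TrogGW and -1.16 ± 0.17 (SE, adjusted p = 2.5e-06) over all libraries and -1.45 ± 0.09 (adjusted p = 3.2e-15) without UK replicate 5 against Trog. MRPL9 had a log2 fold change of -0.69 ± 0.07 (SE, adjusted p = 1.6e-08) over all libraries and -0.71 ± 0.07 (adjusted p = 3.3e-11) without UK replicate 5 against TrogGW, and of -0.73 ± 0.07 (adjusted p = 9.5e-09) against Trog. MRPS10 had 85.3, 85.7, 76.4, 85.1 and 87.6 CPM in TrogGW and 93.99, 99.3, 96.8, 88.3 and 109 CPM in Trog, all above the UK libraries. Its log2 fold change was -0.89 ± 0.15 (SE, adjusted p = 2.3e-05) over all libraries and -0.70 ± 0.06 (adjusted p = 3.7e-12) without UK replicate 5 against TrogGW and -1.10 ± 0.16 (SE, adjusted p = 1.7e-06) over all libraries and -0.92 ± 0.06 (adjusted p = 9.9e-15) without UK replicate 5 against Trog. MRPL4 fell, at -0.49 ± 0.10 (adjusted p = 1.5e-04) against TrogGW and -0.41 ± 0.10 (adjusted p = 0.0011) against Trog. MRPS7, a small-subunit protein with a counterpart in all ribosomes, had 24.2, 27.2, 27.1 and 25.1 CPM in UK replicates 1 to 4 and 66.8 CPM in replicate 5, against 40.98, 45.2, 46.4, 46.6 and 45.05 CPM in TrogGW. Its fall passed the test only without UK replicate 5, at -0.79 ± 0.06 (adjusted p = 2.8e-13) in place of -0.40 ± 0.19 (adjusted p = 0.060). MRPS35 was lower, at -0.89 ± 0.06 (adjusted p = 6.6e-15) against TrogGW and -1.06 ± 0.06 (adjusted p = 1.4e-16) against Trog without that library, against -0.02 ± 0.32 (adjusted p = 0.96) and -0.19 ± 0.32 (adjusted p = 0.63) with it.

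**Figure D4:**
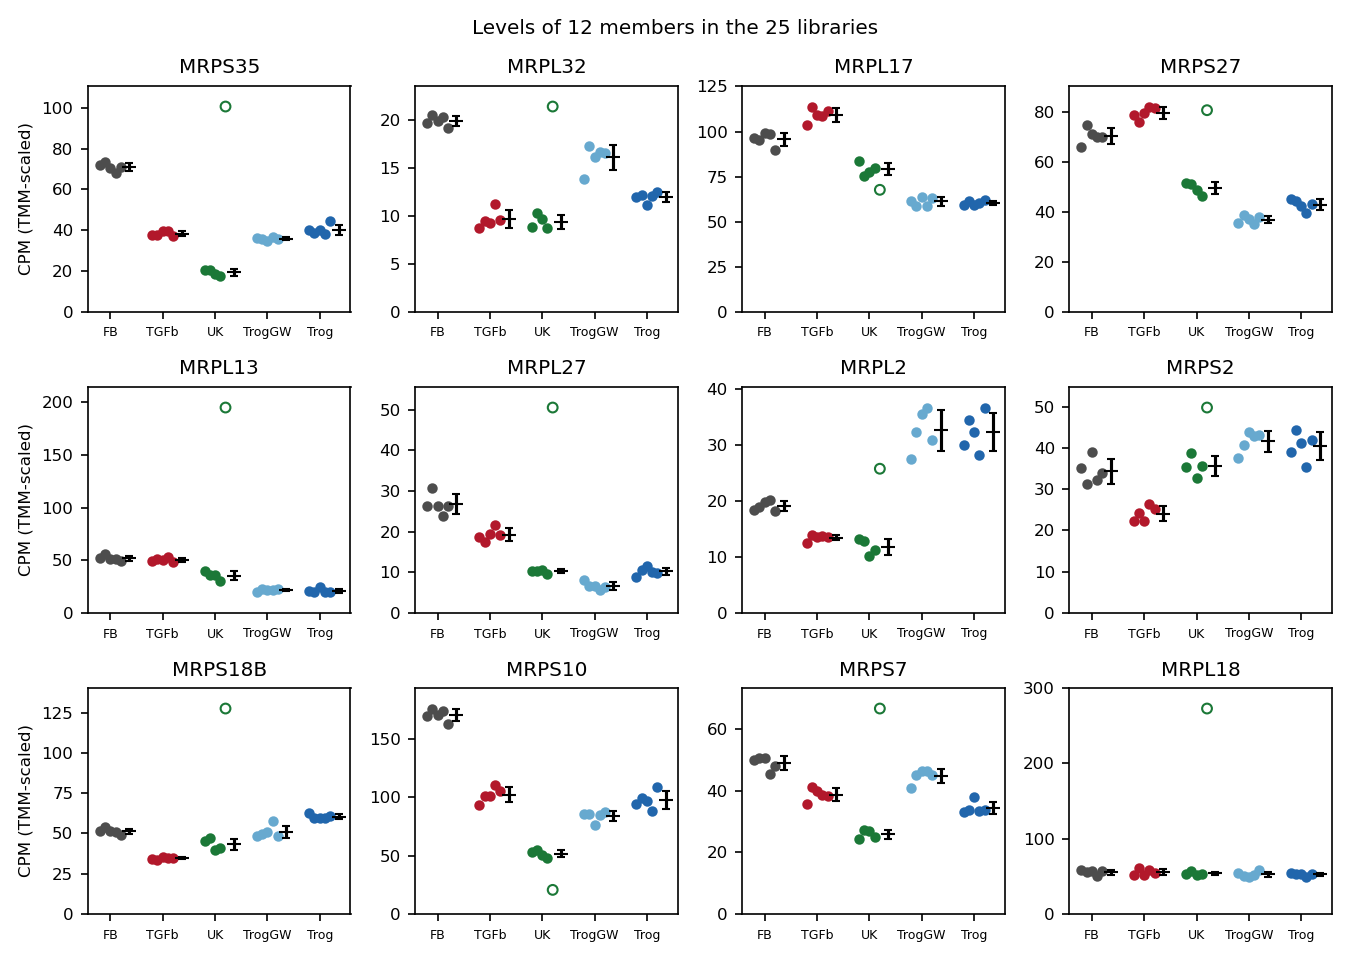
TMM-scaled CPM of 12 members in the 25 libraries by group; filled points are libraries, the open point is UK replicate 5, and bars show mean and SD of 5 libraries (4 in UK, without replicate 5). On this scale MRPL17 and MRPS27 are lower in the day-5 groups than in TGFb but for MRPS27 in UK replicate 5, MRPL2 is highest with troglitazone, and MRPL18 is level in all groups but for UK replicate 5.

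UK replicate 5 was unlike its group in nearly all members. It lay above the other 4 UK libraries in 56 of the 62, below them in 5 and within their range in 1, which was MRPL9. The same count was not made over all tested genes, across which this library also differed from its group. The ratio of its CPM to the mean of the other 4 had a median of 3.56 and went from 0.281 for MRPL49 to 6.90 for MRPS28. MRPL20 had 430.2 CPM in this library, and MRPL18, otherwise level, had 273 CPM there, against 53.3, 56.4, 52.04 and 53.2 CPM in the other UK libraries. The 5 members below were MRPL49, MRPS10, MRPL53, MRPL17 and MRPS31. MRPL49 had 4.03 CPM, against 15.7, 14.2, 13.3 and 14.2 CPM in the other UK libraries, and MRPL53 had 4.94 CPM, against 10.1, 12.01, 9.67 and 11.6 CPM. Genes of the cytosolic ribosome and of the respiratory chain stood high in it as well. The summed level of 37 cytosolic ribosomal protein genes was 144196 CPM in UK replicate 5, against 26502 to 32045 CPM in the other UK libraries. That of 50 nuclear genes of the respiratory chain and ATP synthase was 18588 CPM, against 4119 to 4744 CPM.

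**Figure D5:**
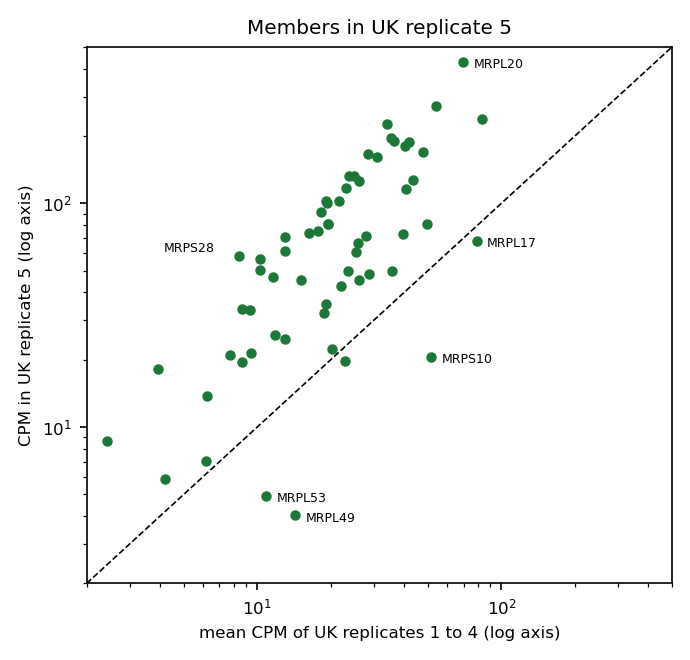
CPM of each of the 62 members in UK replicate 5 (vertical, log axis) against the mean of UK replicates 1 to 4 (horizontal, log axis); the dashed line marks equal values. Nearly all points lie above the line, with a median ratio of 3.56, and MRPL49, MRPL53 and MRPS10 lie clearly below it.

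Across the 5 groups, FB had the highest mean for 36 of the 62 members, and for 49 once UK replicate 5 was left out. UK then had the lowest mean for 24, Trog for 17, TrogGW for 15 and TGFb for 6. The widest range of group means was that of MRPL27, at 2.02 on the log2 CPM scale, followed by MRPS10 at 1.99, MRPL54 at 1.68 and MRPL4 at 1.45. Leaving out UK replicate 5, MRPS35 came second at 1.88. The narrowest ranges were 0.231 for MRPL53, 0.327 for MRPL16, 0.373 for MRPL44 and 0.404 for MRPS31. Without UK replicate 5 MRPL18 was narrowest at 0.0771, and MRPL18 and MRPL53 were the only members called in none of the 7 comparisons. The counts in this paragraph were not made over all tested genes, so they do not set the members apart from other genes.

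In the 3 comparisons of day-5 groups with TGFb, members of both subunits and of either ancestry were found in each direction. In TGFb against FB over all libraries, no small-subunit and no mitochondria-specific member rose. In TGFb against FB, 11 of 41 large-subunit and 9 of 21 small-subunit members fell, and without UK replicate 5 31 of 41 and 16 of 21 did. Of members with a bacterial counterpart, 10 of 36 fell, and of mitochondria-specific ones 10 of 26, and without that library 27 of 36 and 20 of 26. In UK against TGFb without it, 23 of 41 large-subunit members fell and 2 rose, and of the 21 of the small subunit 10 fell and 5 rose. The corresponding numbers were 19 and 8 of 41 and 7 and 6 of 21 in TrogGW, and 19 and 7 of 41 and 10 and 3 of 21 in Trog. The shares of all tested genes are those given above for each comparison. The differences between subunits were not tested.

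Several members have a part in the ribosome that sets them apart. MRPL58, a peptidyl-tRNA hydrolase built into the large subunit that can free stalled chains, had 17.4, 20.5, 21.9, 18.4 and 18.4 CPM in TGFb, against 27.1, 25.99, 26.1, 24.1 and 24.2 CPM in FB. The groups did not overlap, but the log2 fold change of -0.40 ± 0.22 (adjusted p = 0.16) passed the test only without UK replicate 5, at -0.40 ± 0.07 (adjusted p = 7.1e-06). In UK against TGFb its fold change was 0.11 ± 0.22 (SE, adjusted p = 0.70) over all libraries and -0.36 ± 0.07 (adjusted p = 7.6e-05) without UK replicate 5, so the sign turned on that library. MRPS30, a large-subunit protein in spite of its name, had 20.6, 20.9, 20.8, 22.7 and 20.2 CPM in TGFb, against 42.8, 42.4, 39.4, 39.1 and 41.5 CPM in FB, or -0.96 ± 0.31 (SE, adjusted p = 0.017, and SE 0.08, adjusted p = 3.1e-12 without UK replicate 5). MRPS18A, also of the large subunit, had 23.8, 25.02, 25.5, 28.4 and 25.1 CPM in TGFb, against 41.98, 43.3, 41.5, 37.6 and 36.9 CPM in FB, or -0.65 ± 0.13 (SE, adjusted p = 3.5e-04, and SE 0.07, adjusted p = 4.5e-10 without UK replicate 5). Both fell to well below the FB range. MRPS12, which sits at the decoding centre, had 5.46, 6.15, 5.47, 3.66 and 5.41 CPM in TGFb, against 7.704, 4.58, 7.73, 6.41 and 7.09 CPM in FB, and the groups overlapped (-0.35 ± 0.23 (adjusted p = 0.24)). It rose in TrogGW against TGFb at 0.51 ± 0.22 (SE, adjusted p = 0.046, and SE 0.16, adjusted p = 0.0045 without UK replicate 5). These groups overlapped too, with 5.71 to 8.49 CPM in TrogGW and 3.66 to 6.15 CPM in TGFb. MRPL45 was lower in TGFb than in FB without UK replicate 5, at -0.31 ± 0.06 (adjusted p = 2.4e-05), against -0.31 ± 0.25 (adjusted p = 0.36) over all libraries.

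Of the mitochondrial ribosomal proteins that carry other names, DAP3, PTCD3, AURKAIP1 and GADD45GIP1 were in the files. DAP3, a GTP-binding protein of the small subunit, had 131, 127, 133, 142 and 135 CPM in TGFb, against 133, 140.5, 135, 123 and 129 CPM in FB, at 0.02 ± 0.22 (adjusted p = 0.97). In the day-5 groups it fell to 59.3, 57.99, 57.6 and 55.1 CPM in UK replicates 1 to 4, with 183 CPM in replicate 5, to 67.1, 69.9, 76.7, 69.7 and 68.6 CPM in TrogGW and to 84.6, 92.3, 88.4, 84.6 and 87.7 CPM in Trog. The log2 fold change against TGFb was -0.70 ± 0.22 (SE, adjusted p = 0.012) over all libraries and -1.21 ± 0.05 (adjusted p = 4.9e-19) without UK replicate 5 in UK, -0.92 ± 0.23 (adjusted p = 8.9e-04) in TrogGW and -0.61 ± 0.22 (adjusted p = 0.021) in Trog. Library totals gave 0.07 in Trog. In TrogGW they moved the median of all tested genes by 0.85, nearly the size of the fall of DAP3 there. PTCD3, a pentatricopeptide repeat protein of the small subunit, had 69.6, 67.4, 72.7, 65.1 and 69.9 CPM in TGFb, against 94.6, 100.2, 93.5, 96.4 and 96.7 CPM in FB, and fell, at -0.48 ± 0.10 (SE, adjusted p = 4.0e-04, and SE 0.06, adjusted p = 1.4e-08 without UK replicate 5). AURKAIP1 had 61.2, 62.4, 60.6, 64.4 and 63.1 CPM in TGFb, against 101, 92.1, 104, 88.7 and 93.04 CPM in FB, without overlap. It passed the test only without UK replicate 5 (-0.62 ± 0.07 (adjusted p = 9.6e-09), against -0.62 ± 0.34 (adjusted p = 0.17)). GADD45GIP1 had 7.76, 9.01, 6.94, 7.69 and 9.08 CPM in TGFb, against 10.2, 8.96, 14.6, 8.81 and 10.2 CPM in FB, and -0.38 ± 0.15 (adjusted p = 0.025) without UK replicate 5, against -0.38 ± 0.41 (adjusted p = 0.50) with it.

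The mitochondrial tRNA synthetases load transfer RNAs with amino acids for this ribosome. In TGFb against FB, 11 of 18 mitochondrial tRNA synthetase genes fell and 1 rose, and without UK replicate 5 15 fell and 1 rose. NARS2, the asparaginyl-tRNA synthetase, was lower, at -0.93 ± 0.12 (adjusted p = 1.8e-06) and CARS2, for cysteine, at -0.47 ± 0.08 (adjusted p = 5.3e-05), whereas IARS2, for isoleucine, rose by 0.22 ± 0.08 (adjusted p = 0.026) but was at -0.15 on library totals. Of all tested genes 20.2% fell and 18% rose in this comparison, and 34.3% and 31.7% without UK replicate 5, here and for the lists that follow. Against TGFb the list had 7 higher and 2 lower in UK, 6 and 4 in TrogGW and 6 and 2 in Trog (6 and 3, 8 and 7, and 6 and 4 without UK replicate 5). Of all tested genes 28% were higher and 22.5% lower in UK, 38.1% and 31.3% in TrogGW and 32.9% and 29.7% in Trog. In TrogGW the share of the list was thus lower than that of all genes in either direction. The same shares of all genes apply to the lists that follow. Without UK replicate 5 they were 35.9% and 35% in UK, 46.6% and 39.3% in TrogGW and 42% and 39% in Trog. NARS2 rose in each, by 0.92 ± 0.13 (SE, adjusted p = 1.6e-06) over all libraries and 0.79 ± 0.11 (adjusted p = 1.2e-07) without UK replicate 5, 1.44 ± 0.12 (adjusted p = 3.4e-10) and 1.20 ± 0.12 (adjusted p = 1.0e-08). HARS2, for histidine, was higher in TrogGW than in Trog by 0.76 ± 0.12 (adjusted p = 9.7e-06), and CARS2 lower, at -0.71 ± 0.08 (adjusted p = 2.0e-07).

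A further list held genes for assembly of the mitochondrial ribosome and modification of its RNA. In TGFb against FB, 8 of 28 fell and 1 rose, and 17 and 2 without UK replicate 5. RCC1L, which acts in large-subunit assembly, fell, at -0.75 ± 0.08 (adjusted p = 4.2e-08), and NOA1, a GTPase needed for mitochondrial translation, at -0.74 ± 0.12 (adjusted p = 3.1e-05). SPG7, a subunit of the m-AAA protease, rose by 0.43 ± 0.14 (adjusted p = 0.016). In Trog against TGFb 15 of the 28 rose and 2 fell (17 and 5 without UK replicate 5), in TrogGW 7 rose and 4 fell (16 and 5), and in UK 13 rose and 3 fell (11 and 6). Of all tested genes 32.9% rose and 29.7% fell in Trog, 38.1% and 31.3% in TrogGW and 28% and 22.5% in UK. MTG2, a GTPase of large-subunit assembly, rose by 1.13 ± 0.10 (adjusted p = 6.1e-10) in TrogGW and 1.01 ± 0.10 (adjusted p = 5.5e-09) in Trog. ERAL1, a chaperone of the small-subunit RNA, fell, at -0.55 ± 0.12 (adjusted p = 3.9e-04) and -0.39 ± 0.12 (adjusted p = 0.0084), with the sign turned on library totals, at 0.30 and 0.29. LETM1, an inner-membrane protein, fell in UK against TGFb, at -1.12 ± 0.08 (adjusted p = 6.4e-11).

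Of 16 mitochondrial translation factors, 2 fell and 0 rose in TGFb against FB over all libraries, and 8 fell and 1 rose without UK replicate 5. MTRF1, a release factor homologue, fell, at -0.53 ± 0.10 (adjusted p = 2.4e-04), and MTIF2, an initiation factor, at -0.45 ± 0.17 (adjusted p = 0.035). Against TGFb, 4 rose and 2 fell in UK, 3 and 2 in TrogGW and 3 and 1 in Trog (2 and 6, 8 and 5, and 3 and 7 without UK replicate 5). OXA1L, which inserts the new chains into the inner membrane, fell, at -0.84 ± 0.10 (adjusted p = 1.5e-07) in TrogGW and -0.63 ± 0.10 (adjusted p = 1.0e-05) in Trog, where library totals gave 0.02 and 0.05. It was higher in UK than in Trog by 0.58 ± 0.10 (SE, adjusted p = 4.2e-05) over all libraries and 0.43 ± 0.06 (adjusted p = 1.4e-07) without UK replicate 5. Of 15 genes for transcription of mitochondrial DNA and stability of its RNA, 6 fell and 0 rose in TGFb against FB (12 and 2 without UK replicate 5), with LRPPRC, an RNA-binding protein that stabilises these transcripts, at -0.48 ± 0.12 (adjusted p = 0.0023) and TWNK, the helicase of mitochondrial DNA, at -0.59 ± 0.15 (adjusted p = 0.0032). PNPT1, an exoribonuclease, fell, at -1.56 ± 0.22 (adjusted p = 9.4e-07) in TrogGW and -1.27 ± 0.22 (adjusted p = 1.8e-05) in Trog. In this list 4 rose and 1 fell in UK, 6 and 5 in TrogGW and 5 and 2 in Trog against TGFb (3 and 7, 9 and 5, and 6 and 3 without UK replicate 5).

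Of 9 listed regulators of mitochondrial biogenesis, 8 passed the filter. In TGFb against FB 1 rose and 0 fell, and 2 rose and 2 fell without UK replicate 5. NRF1, a transcription factor of nuclear genes for mitochondria, rose by 0.28 ± 0.08 (adjusted p = 0.0083) but was at -0.09 on library totals. Against TGFb, 1 rose and 3 fell in UK, 4 and 2 in TrogGW and 3 and 1 in Trog (3 and 4, 5 and 2, and 6 and 1 without UK replicate 5). MYC, a transcription factor of growth genes, fell, at -2.12 ± 0.27 (SE, adjusted p = 6.3e-07) over all libraries and -2.54 ± 0.17 (adjusted p = 5.9e-14) without UK replicate 5 in UK, -0.84 ± 0.26 (adjusted p = 0.0062) in TrogGW and -1.03 ± 0.26 (adjusted p = 0.0015) in Trog, and in TrogGW library totals gave 0.01. PPARGC1B, a coactivator of such factors, was higher in Trog than in TGFb by 2.00 ± 0.26 (adjusted p = 5.0e-07) and lower in TrogGW than in Trog, at -1.88 ± 0.25 (adjusted p = 1.5e-06). In UK against Trog 6 of the 8 fell and 0 rose (7 and 0 without UK replicate 5). Of all tested genes 28.2% fell and 32.9% rose in this comparison, and 37.9% and 37.2% without UK replicate 5.

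Genes of the cytosolic ribosome and of the respiratory chain were summed in the same way. The sums cover the genes that passed the filter, 37 of 38 cytosolic and 50 of 51 nuclear respiratory chain and ATP synthase genes. The cytosolic list was chosen by symbol and includes paralogs such as RPL3L and RPL10L. It summed to 32084 ± 2384 CPM in TGFb, against 38555 ± 2130 CPM in FB (SD, n = 5 each). The respiratory chain and ATP synthase list summed to 5374 ± 182 CPM, against 6206 ± 227 CPM. Over all libraries, edgeR's test called 1 of 37 cytosolic ribosomal protein genes lower and none of them higher, and none of the 50 tested respiratory chain genes in either direction. At an unadjusted p under 0.05 it had 2 lower and 0 higher in each list, and DESeq2 called 1 cytosolic gene and 0 respiratory chain genes lower and 0 higher. Without UK replicate 5, 33 of the 37 and 29 of the 50 fell and 0 and 4 rose, against 34.3% lower and 31.7% higher of all tested genes. In TrogGW against TGFb the median log2 fold change was -0.60 and -0.75 for these lists and -0.11 for the mitochondrial ribosomal proteins, and in Trog it was -0.26 and -0.60 and -0.14. These differences between lists were not tested.

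Reads from overlapping genes could bear on single members, since the strand setting of the counting was not given in the sources used here. In the RefSeq table of the cat genome (F.catus_Fca126_mat1.0), 61 of the 62 were found and the span of 24 overlapped another gene. Among the named members these include MRPS27 with PTCD2, MRPS18B with PPP1R10, MRPL49 with SYVN1, MRPL40 with HIRA, MRPS7 with GGA3 and MIF4GD, and MRPL53 with MOGS, and for MRPL2, MRPL13, MRPL17, MRPL27, MRPL32 and MRPS10 no overlap was listed. The part of such reads in the values was not tested.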

How the data were processed

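The authors deposited 1 table of raw integer read counts per library, 13949 gene symbols with no header. STAR 2.7.9a, fastp 0.23.1, Salmon 1.5.2, featureCounts and Subread 2.0.1 are listed in the submitters' processing notes with no role. Which genome build, annotation and strand setting served for counting is not given in the sources used here. Libraries were polyadenylated and stranded, per the labels' protocols.

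The analysis used edgeR 4.0.16 in R 4.3.3: TMM scaling, filter at a minimum count of 10 and minimum total of 15, quasi-likelihood F tests from 1 fit of all 25 libraries, and Benjamini-Hochberg adjustment over all 10699 tested genes with a threshold of 0.05. Each standard error is the size of the log2 fold change divided by the root of its F value. The 7 comparisons were refitted without UK replicate 5 (10798 genes). The code was tested on simulated data. Alternatives were DESeq2 1.42.0, other scalings and filters, 2-group fits, single libraries left out and a replicate block.

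The members and lists were chosen with earlier results of these data known. For each comparison up to 4 members called in each direction were named, those with the lowest p among members whose groups did not overlap, together with the widest and narrowest, 6 with distinct roles, and up to 2 genes per direction of each other list. The same naming was applied to the fit without UK replicate 5 after the data were seen. Some genes the rule selects are not reported here. Figures were drawn with matplotlib 3.10.9.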

Additional observations from a re-analysis of the deposited data

Results flagged for a closer look

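In 27 of 135 group values tested, 1 library of a group of 5 stood far from the others: its gap to the nearest library, divided by the range of the group, was above the critical value of 0.71. Such gaps arise by chance in about 5% of groups. UK gave 20 of the 27, and UK replicate 5 was the library that stood apart in each of these. There the summed share of the 62 genes gave 0.901. The values for single members in UK were 0.941 for MRPL13, 0.805 for MRPL2, 0.972 for MRPL27, 0.875 for MRPL32, 0.767 for MRPL38, 0.858 for MRPL44, 0.928 for MRPL45, 0.795 for MRPL49, 0.932 for MRPL58, 0.801 for MRPS10, 0.973 for MRPS14, 0.790 for MRPS18A, 0.917 for MRPS18B, 0.804 for MRPS22, 0.842 for MRPS26, 0.856 for MRPS27, 0.921 for MRPS30, 0.806 for MRPS33 and 0.841 for MRPS5. Replicate 5 was the highest UK library in all of them but MRPL49 and MRPS10, where it was the lowest.

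The other 7 were spread over the other groups. They were 0.772 for MRPL9 in FB, 0.733 for MRPS30 and 0.767 for MRPS5 in TGFb, 0.776 for MRPS10 and 0.726 for MRPS18B in TrogGW, and 0.817 for MRPL13 and 0.735 for MRPL44 in Trog.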

How the results depend on the processing

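Most results depended on UK replicate 5. Left out one at a time over all 25 libraries, the number of members called went from 1 to 2 higher and 18 to 47 lower in TGFb against FB, 7 to 23 higher and 6 to 33 lower in UK against TGFb, 5 to 14 higher and 8 to 26 lower in TrogGW against TGFb, 8 to 29 lower in Trog against TGFb, 3 to 17 higher and 2 to 19 lower in TrogGW against Trog, 17 to 33 higher and 4 to 22 lower in UK against Trog, and 15 to 32 higher and 6 to 24 lower in UK against TrogGW. Changes beyond 1.5 times came from UK replicate 5 alone, except for the members higher in UK than in TGFb, which numbered 9 without TGFb replicate 1 or 5 and 23 without UK replicate 3 or 4. In fits of only the 2 groups, TGFb against FB gave 2 higher and 51 lower, Trog against TGFb 31 lower, TrogGW against TGFb 12 higher and 28 lower, UK against TGFb 3 higher, TrogGW against Trog 16 higher and 14 lower, UK against Trog 9 higher, and UK against TrogGW 11 higher and 4 lower. Such fits with UK replicate 5 also left out, chosen after the data were seen, gave 8 higher and 31 lower against TGFb, 16 and 21 against Trog, and 21 lower against TrogGW. DESeq2 gave 14 members higher in UK than in Trog and 14 higher than in TrogGW. Counts stayed within 1.5 times with DESeq2's size factors in edgeR, without a filter and with a minimum count of 50.

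On library totals alone, counts were 0 higher and 44 lower in TGFb against FB, 32 higher in UK against TGFb, 44 higher and 2 lower in TrogGW against TGFb, 34 and 2 in Trog against TGFb, 10 and 1 in TrogGW against Trog, 4 and 17 in UK against Trog, and 3 and 25 in UK against TrogGW. Of all tested genes 42.5% were higher in UK against TGFb, and the other shares are those given above. With UK replicate 5 left out as well, chosen after the data were seen, they were 0 and 62, 23 and 15, 54 and 4, 49 higher, 30 and 6, 3 and 46, and 1 and 54 in the same order. Over all tested genes that fit had 12.8% higher and 62.9% lower in TGFb against FB and 54.1% and 20.2% in UK against TGFb. It had 76% and 15.1% in TrogGW against TGFb, 71.3% and 16.2% in Trog against TGFb, and 49.5% and 22.8% in TrogGW against Trog. In UK it had 19.6% and 60.7% against Trog and 17.4% and 70.6% against TrogGW. Turned signs were counted only for members named from the fit of all libraries and the 6 with distinct roles, where either value passed the test. The scaling turned the sign of 17 of these log2 fold changes. Other members turned as well, such as MRPL40 in TrogGW against TGFb. In TGFb against FB the counted sign was that of MRPL17 at -0.19. In TrogGW against TGFb these were MRPL17 at 0.017, MRPL45 at 0.81, MRPL54 at 0.36, MRPL58 at 0.78, MRPS18A at 0.36 and MRPS30 at 0.77. In Trog against TGFb it was MRPS18A at 0.40. In UK against Trog they were MRPL17 at -0.11, MRPL58 at -0.44, MRPS18A at -0.40 and MRPS27 at -0.10. In UK against TrogGW they were MRPL17 at -0.29, MRPL58 at -0.49, MRPS12 at -0.63, MRPS18A at -0.37 and MRPS27 at -0.052. The cause was not tested. Over single libraries left out, MRPL58 ranged from -0.36 to 0.23 in UK against TGFb, from -0.40 to 0.19 in UK against Trog and from -0.28 to 0.31 in UK against TrogGW, and MRPS30 from -0.047 to 0.91 in UK against Trog, each with the negative value without UK replicate 5.

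The labels do not say whether replicate numbers pair the samples. Deviations of same-numbered libraries from their group means correlated at -0.19 to 0.33, and libraries with different numbers were not compared in this way. A block for replicate number gave 8 members higher in UK against TGFb and 17 in UK against Trog and kept the other counts within 1.5 times.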
